A study of Mus musculus with 12 samples.

Results

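Messenger RNAs of the neurofilament and stathmin families and of the growth cone were followed in RNA immunoprecipitation libraries from mouse neurons. The set comprised 10 genes of the 55573 in the count table. It held the neurofilament subunits Nefl, Nefm, Nefh and Ina, the growth cone gene Gap43, the microtubule gene Dcx, and the stathmins Stmn1, Stmn2, Stmn3 and Stmn4. The genes were taken by symbol and joined to the counts by Ensembl identifier. No measured value entered this rule, though earlier results of these data were known when the set was chosen. All 10 passed the filter that left 17284 genes for testing.

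Primary hippocampal neurons of newborn C57BL/6 mice were grown for 14 days. RNA was then recovered from lysates with an antibody against endogenous YTHDF1, YTHDF2 or YTHDF3 (RNA immunoprecipitation, RIP), or taken from a fraction of lysate without antibody (Input). The 12 libraries thus comprised 3 Input replicates and 3 replicates for each RIP, all from unmodified cells of the same strain and culture time. The comparisons ask which RNAs each protein is associated with, and whether the proteins differ.

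Per the methods of the study, the hippocampi of single litters were pooled over both sexes and a drug against dividing glia was added. Lysate of several culture wells was pooled for each replicate and divided among the antibodies, with a shared input. Whether the replicates came from separate litters is not given in the sources used here, so the p-values measure the spread between these libraries. No control-antibody library was analysed here, and enrichment is relative to Input alone. A RIP library gives the composition of the recovered RNA and not its amount, so each change is relative to the bulk of the tested genes.

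Library totals lay between 6020072 and 38909592 counts. Neuron markers were abundant, at a summed 1559 to 6468 normalized CPM (a gene's count as a share of its library's TMM-scaled total), and 4 of 5 microglia markers were under 1 CPM in each group. Astrocyte markers were present and uneven, at a summed 255.6 to 2514 CPM in Input, 329 to 1196 with YTHDF1, 650 to 1302 with YTHDF2 and 193 to 1553 with YTHDF3. Oligodendrocyte lineage markers summed to 55.9 to 290 CPM in Input and to 214 to 1262 CPM with YTHDF1. With YTHDF2 they were at 183 to 301 CPM and with YTHDF3 at 54.9 to 331 CPM. In bulk lysates, fewer cells of a type and less RNA per cell cannot be told apart. The YTHDF3 RIP libraries deviated together with the same-numbered Input libraries, whereas the YTHDF1 and YTHDF2 RIP libraries numbered 2 and 3 did not. Those numbered 1 matched their Input no better than an Input of another number (Pearson's r over genes 0.093 and 0.176). The methods nevertheless describe 1 lysate per replicate number.

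Neurofilaments are the intermediate filaments of neurons. Nefl, the light subunit, forms the filament core, Nefm and Nefh, the medium and heavy subunits, carry long tails that project from it, and Ina, alpha-internexin, is a further subunit of central neurons that appears early in development. Stathmins bind soluble tubulin and favour the shrinkage of microtubules. Stmn1 is cytosolic, while Stmn2 (SCG10), Stmn3 (SCLIP) and Stmn4 (RB3) are held on membranes and are typical of neurons. Gap43 is a membrane-attached substrate of protein kinase C that is abundant in growth cones, and Dcx, doublecortin, stabilizes microtubules in migrating and young neurons. The YTHDF proteins bind N6-methyladenosine (m6A), a methylated adenosine that is frequent near stop codons and is often found in the RNA sequence GGACU.

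The RNA sequence the proteins are known to read was searched as GGACT in 1 reference transcript per gene, the one with the longest coding sequence in GENCODE release M21 (build GRCm38). Only the RNA strand was read, and neither a match nor its absence says anything of methylation. GGACT occurred in 7 of the 10 mRNAs, against 91.7% of 13463 tested coding genes. Gap43, Stmn1 and Stmn3 held none. The match nearest the stop codon is shown for 5 of the genes in which its window lies in 1 exon, 25 bases read 5′ to 3′ along the mRNA with the motif in capitals, so that the sequence context can be set beside the RIP values. The windows lie in the 3′UTR of Nefl (chr14:68087570-68087594, plus strand), Nefm (chr14:68119643-68119667, minus strand) and Stmn2 (chr3:8561296-8561320, plus strand). They lie in the coding sequence of Nefh (chr11:4939769-4939793, minus strand) and Ina (chr19:47021897-47021921, plus strand).
Nefl: gacttaggttGGACTttcaatgttg
Nefm: catttaaaatGGACTtctgttcatg
Nefh: aaaagcccaaGGACTctacagcaga
Ina: gggaataccaGGACTtgctcaatgt
Stmn2: caagcactgtGGACTtttactcaag
The sites of Nefl, Nefm and Stmn2 begin 133, 380 and 981 bases past the stop codon. The only GGACT of Stmn4 lies in its 5′UTR, and the 25-base window around it spans an exon junction.

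All 10 mRNAs had a GGACT density below the median of tested coding genes, which was 1.04 per kb. The highest were Nefm at 0.900, Nefl at 0.888 and Dcx at 0.882 per kb, followed by Stmn4 at 0.781, Nefh at 0.501, Stmn2 at 0.482 and Ina at 0.309 per kb. When GGACA and GGACC were counted together with GGACT, which cannot overlap one another, 8 of the 10 stayed below the median of 3.65 per kb. The exceptions were Stmn4 at 6.25 and Stmn1 at 3.77 per kb, and Stmn3 was lowest at 0.880 per kb. Across 13463 coding genes, the Spearman correlation of GGACT density with the log2 fold change of RIP over Input was 0.013 for YTHDF1, 0.098 for YTHDF2 and 0.049 for YTHDF3. These are descriptions across genes of the same libraries.

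In Input, levels per exonic length placed the stathmins and Gap43 above the larger neurofilament subunits. The unit is RPKM, here the normalized CPM divided by the length of all annotated exons in kilobases. Stmn3 was highest at 365 ± 66.8 RPKM (SD, n = 3), with no overlap with the gene next in order. Stmn1 at 165 ± 59.2, Gap43 at 158 ± 45.6, Nefl at 107 ± 47.7, Stmn4 at 95.8 ± 13.5 and Stmn2 at 95.1 ± 22.8 RPKM followed, each overlapping its neighbour. Ina at 48.5 ± 6.41 RPKM stood apart from both neighbours. Dcx at 25.2 ± 10.8 and Nefm at 18.1 ± 7.11 RPKM overlapped, and Nefh was lowest at 5.73 ± 4.02 RPKM. All annotated exons of a gene entered its length, 5602 bases for Stmn2 and 12647 for Dcx against 2073 and 9074 bases in their reference transcripts. Stmn1 had 1922 against 1060 bases, Stmn4 1916 against 1281 and Nefm 5782 against 3334, whereas Stmn3 had 1136 by both. Levels of genes with the longer exonic length are lower here than per transcript. The order and the gaps above, including that below Stmn3, hold for exonic length, and the order per transcript was not computed. By this measure neurofilament mRNAs were unequal in these cultures, with Nefm at 0.158 to 0.198 and Nefh at 0.0407 to 0.0692 of Nefl per exonic length. The Nefm fraction is lower here than per transcript, since Nefl had 3380 bases by both lengths. In CPM, without division by length, Nefm was at 0.270 to 0.339 of Nefl.

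None of the 10 mRNAs passed the test for enrichment in any RIP, and each RIP was depleted in some of them, always including Stmn2 and Stmn3. A gene was called enriched or depleted if it was at least 25% above Input, or Input at least 25% above it, with an adjusted p of at most 0.05 in edgeR's quasi-likelihood test with Benjamini-Hochberg adjustment over all 17284 genes. Calls were frequent under this rule. With YTHDF1 27.1% of genes were enriched and 25.5% depleted, with YTHDF2 15.6% and 18.9%, and with YTHDF3 16.3% and 22.9%. Against these, 0 members were enriched and 2 depleted with YTHDF1, 0 and 4 with YTHDF2, and 0 and 4 with YTHDF3. The median log2 fold change over the 10 was -0.28, -0.81 and -0.71, beside 0.02, 0.02 and 0.05 over all tested genes. With 10 genes, a depleted count of 2 is near the share of all genes, and a count of 4 is above it without a test of the list. The 3 comparisons use the same Input libraries and are not independent. By range, 2 members lay below every Input library with YTHDF1, 6 with YTHDF2 and 6 with YTHDF3, where 27.8%, 27.4% and 29.0% of all genes did. Above every Input library lay 1, 0 and 0 members, against 27.8%, 25.2% and 26.4% of all genes.

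The scale mattered for the YTHDF1 and YTHDF3 RIPs. When libraries were scaled by their totals only (library size alone), the median over all genes moved to -0.39 for YTHDF1 and 0.38 for YTHDF3. The calls over all genes then went from 4679 enriched and 4410 depleted to 3076 and 6254 for YTHDF1, and from 2816 and 3950 to 4821 and 3044 for YTHDF3. With TMM factors over protein-coding genes the YTHDF1 median was -0.23, with 3668 enriched and 5546 depleted, and with the length trend removed the YTHDF3 median was -0.17, with 1466 enriched and 3941 depleted. TMM factors computed before the filter put the YTHDF3 median at 0.18. On the library size scale 6 members were depleted with YTHDF1 and 2 with YTHDF3. Stmn2 and Stmn3 were depleted on each of these scales in all 3 RIPs.

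**Figure D1:**
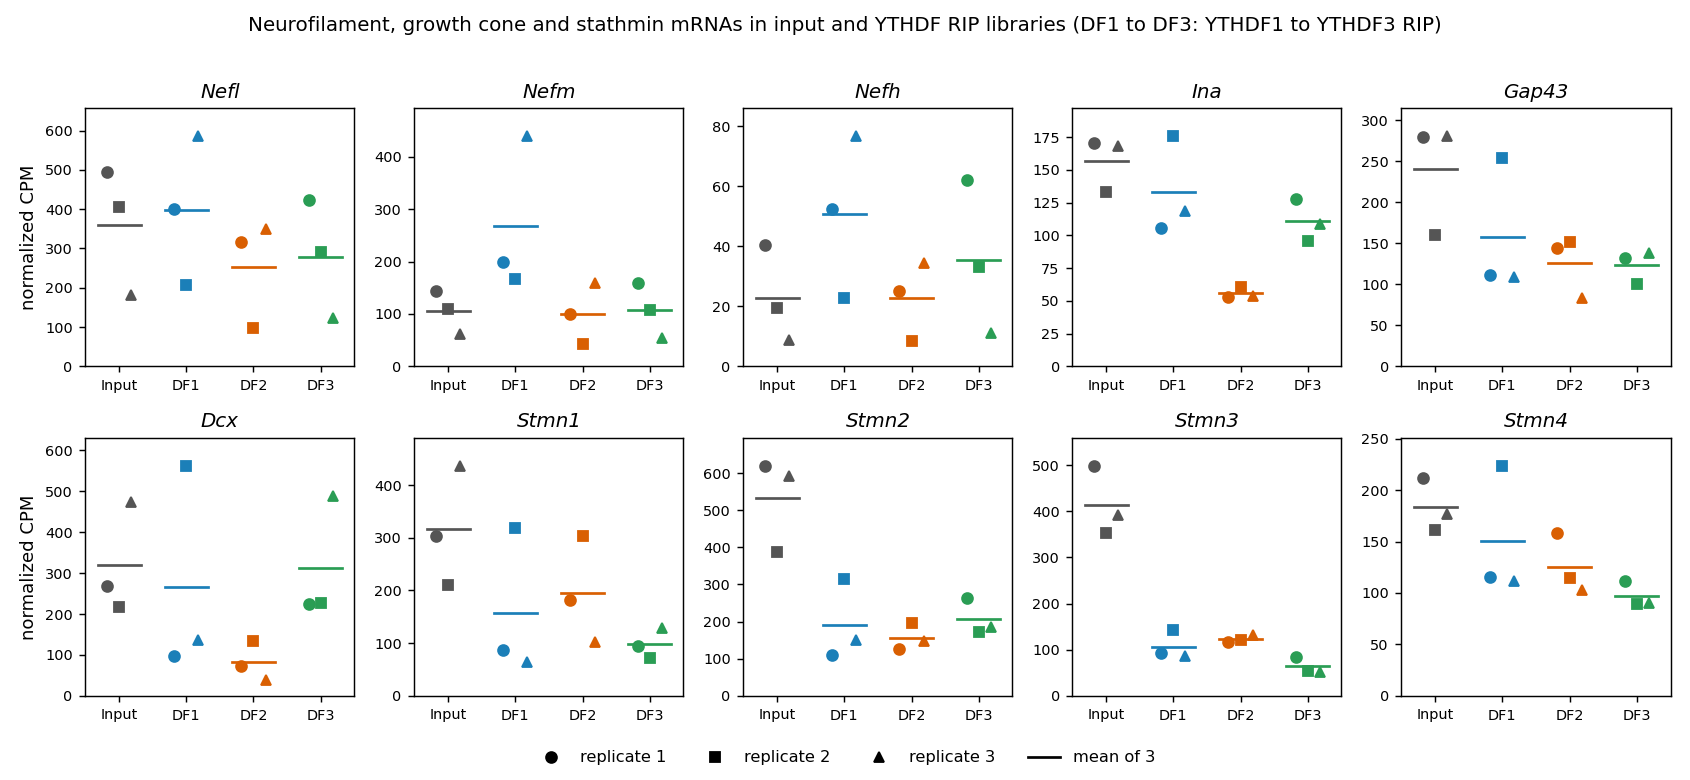
Normalized CPM (vertical axis, linear, from 0) of each of the 10 mRNAs in the 12 libraries, by group on the horizontal axis. Circles, squares and triangles are replicates 1, 2 and 3 and the line is the mean of 3. Stmn3 lies between 353 and 499 CPM in Input and at or below 142 CPM in every RIP library, while Nefl ranges widely within each group.

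Stmn3 was the most depleted member in the YTHDF1 and YTHDF3 RIPs. It was at 499, 353 and 392 CPM in Input, 92.5, 142 and 85.5 with YTHDF1, 116, 120.4 and 131 with YTHDF2, and 84.9, 54.8 and 51.7 with YTHDF3. Every RIP library was below every Input library. The level was 3.89-fold lower than Input with YTHDF1 (log2 fold change -1.96, SE 0.26, adjusted p = 0.000103, edgeR), 3.38-fold lower with YTHDF2 (-1.76, SE 0.26, adjusted p = 0.000638) and 6.5-fold lower with YTHDF3 (-2.70, SE 0.27, adjusted p = 4.1e-05). Stmn3 is the shortest of the 10, at 1136 exonic bases (ENSMUSG00000027581, chr2:181306459-181314500, minus strand), and holds no GGACT. It was depleted in all 3 RIPs under every alternative tried and without any single library.

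Stmn2 was depleted in all 3 RIPs. Its levels were 620.4, 386 and 591 CPM in Input, 109, 314 and 149 with YTHDF1, 125, 197 and 147 with YTHDF2, and 263, 173 and 184 with YTHDF3. The groups did not overlap with Input. The level was 2.79-fold lower with YTHDF1 (log2 fold change -1.48, SE 0.37, adjusted p = 0.00586, edgeR), 3.4-fold lower with YTHDF2 (-1.77, SE 0.37, adjusted p = 0.00413) and 2.58-fold lower with YTHDF3 (-1.37, SE 0.37, adjusted p = 0.0122). The YTHDF3 call was lost without YTHDF3 RIP replicate 2 (-1.22, adjusted p = 0.0553). Stmn2 (ENSMUSG00000027500, chr3:8509360-8561606, plus strand) has the single 3′UTR motif printed above and 5602 exonic bases, so it is not among the short genes by this measure. Its reference transcript has 2073 bases, below the median of 3099 over tested coding genes.

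Stmn1 and Stmn4 were depleted in the YTHDF3 RIP, less firmly. Stmn1 was at 304, 211 and 437 CPM in Input and at 93.8, 71.6 and 128 in the YTHDF3 RIP, with no overlap. The log2 fold change was -1.70 (SE 0.58, adjusted p = 0.0370, edgeR). This call was lost without Input replicate 1 or 3, YTHDF2 RIP replicate 1, or any of the YTHDF3 RIP libraries, at values from -1.93 to -1.37 with adjusted p up to 0.132. Stmn4 was at 212, 161 and 177 CPM in Input and at 112, 89.2 and 90.3 in the YTHDF3 RIP, a log2 fold change of -0.92 (SE 0.28, adjusted p = 0.0212, edgeR). It was lost without Input replicate 1 (-0.81), YTHDF3 RIP replicate 2 (-0.83) or YTHDF3 RIP replicate 3 (-0.86). Both calls were also lost with library size alone as the scale (-1.36 and -0.60) and after removal of the length trend (-1.35 and -0.57).

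In the other RIPs Stmn1 overlapped with Input, at 86.8, 319 and 64.7 CPM with YTHDF1 (log2 fold change -1.02, adjusted p = 0.157, edgeR) and 182, 303 and 102 CPM with YTHDF2 (-0.70, adjusted p = 0.368). Stmn4 was at 115, 224 and 111 CPM with YTHDF1 (log2 fold change -0.29, adjusted p = 0.402, edgeR) and at 158, 114 and 103 CPM with YTHDF2 (-0.55, adjusted p = 0.144), where it passed without YTHDF1 RIP replicate 2 (-0.57). YTHDF1 RIP replicate 2 was the highest library of its group for both genes. Whether the effect on Stmn1 and Stmn4 differs between the RIPs is taken up with the direct comparisons. Over the 4 stathmins the median log2 fold change was -1.25 with YTHDF1, -1.23 with YTHDF2 and -1.53 with YTHDF3. All were negative, except that Stmn4 in the YTHDF1 RIP turned to 0.13 once the length trend was removed.

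**Figure D2:**
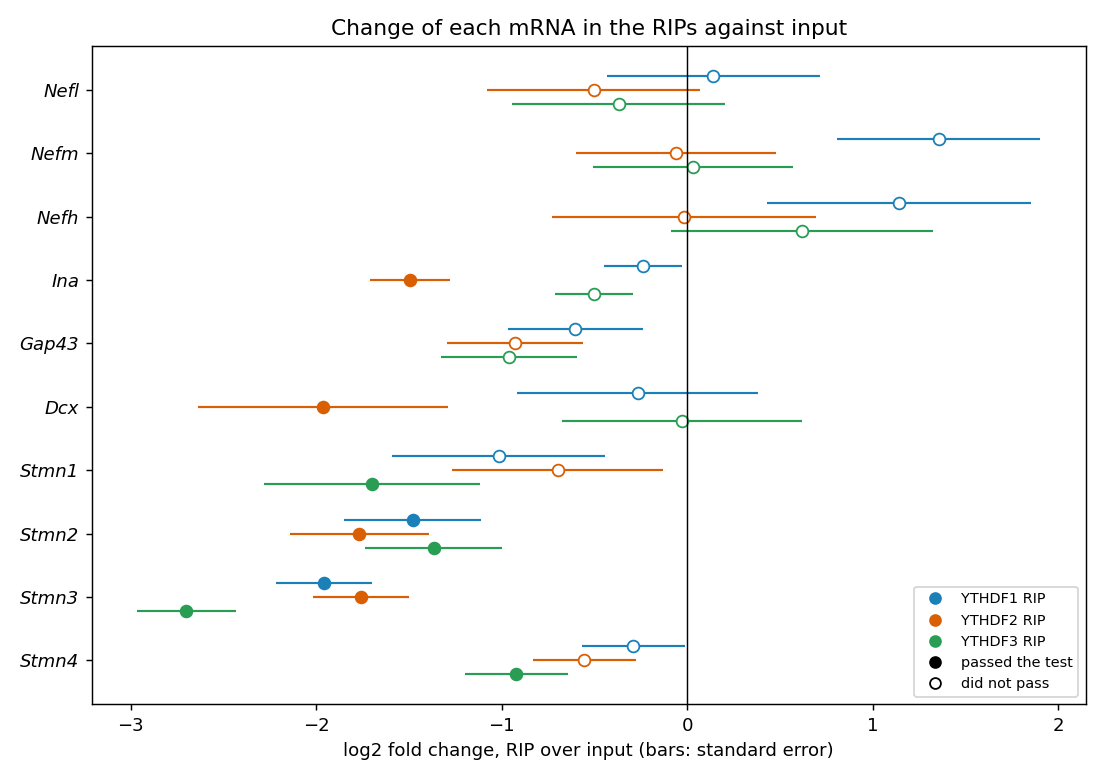
Log2 fold change of RIP over Input (horizontal axis) for each mRNA, with bars of 1 standard error from the edgeR fit and colours for the 3 RIPs. Filled points passed the test and open points did not. Stmn2 and Stmn3 are filled in all 3 RIPs, Ina and Dcx in the YTHDF2 RIP and Stmn1 and Stmn4 in the YTHDF3 RIP.

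The neurofilament subunits did not move as a block. Ina was depleted in the YTHDF2 RIP, where all 3 libraries were below all Input libraries. It was at 170.3, 133 and 168 CPM in Input, 106, 176 and 119 with YTHDF1, 52.7, 60.7 and 53.8 with YTHDF2, and 128, 96.1 and 109 with YTHDF3. With YTHDF2 it was 2.82-fold lower than Input (log2 fold change -1.50, SE 0.22, adjusted p = 0.000595, edgeR), a call that held under every alternative and without any single library. In the YTHDF1 RIP Ina overlapped with Input (log2 fold change -0.24, SE 0.21, adjusted p = 0.370, edgeR). In the YTHDF3 RIP it lay below every Input library and did not pass (-0.50, SE 0.21, adjusted p = 0.0788). It passed without YTHDF1 RIP replicate 2 (-0.45) and in the fit of only these groups blocked by replicate number (-0.44).

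Nefl, Nefm and Nefh passed no comparison with Input in the fit of all libraries. Nefl was at 494, 406 and 181 CPM in Input, 399, 206 and 586 with YTHDF1, 315, 97.2 and 349 with YTHDF2, and 422, 292 and 123 with YTHDF3. The libraries of a group spread more widely than the group means differed, with log2 fold changes of 0.14 (SE 0.57), -0.50 and -0.37 and adjusted p of 0.856, 0.526 and 0.643 in edgeR's test. The YTHDF1 value turned negative with library size alone (-0.25) and with TMM factors over protein-coding genes (-0.13). Nefh was at 40.4, 19.5 and 8.77 CPM in Input, 52.3, 22.8 and 76.7 with YTHDF1, 25, 8.34 and 34.6 with YTHDF2, and 62, 32.9 and 11.1 with YTHDF3. Its log2 fold changes were 1.14 (SE 0.71), -0.02 and 0.62, with adjusted p of 0.200, 0.989 and 0.519 (edgeR), and the YTHDF1 value passed with no filter (1.08).

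Nefm was the only member above every Input library in any RIP. It was at 143, 109.7 and 61.4 CPM in Input and at 199, 166 and 439.6 in the YTHDF1 RIP, and 27.8% of all tested genes lay above Input in the same way. The log2 fold change was 1.36 (SE 0.55) with an adjusted p of 0.0556 in edgeR's test, just outside the threshold. It passed with DESeq2 (1.31, adjusted p = 0.0296) and with no filter (1.32), and without any 1 of YTHDF1 RIP replicate 2 (1.52), YTHDF2 RIP replicate 2 (1.36), YTHDF2 RIP replicate 3 (1.36) or YTHDF3 RIP replicate 3 (1.35). In the YTHDF2 RIP Nefm was at 100.3, 41.8 and 159 CPM and in the YTHDF3 RIP at 159, 108 and 54.7 CPM, both overlapping Input (log2 fold changes -0.06 and 0.03, adjusted p = 0.943 and 0.971, edgeR). Per length, Nefm was 0.291 to 0.472 of Nefl in the YTHDF1 RIP and 0.158 to 0.198 in Input. That ratio was 0.186 to 0.266 with YTHDF2 and 0.216 to 0.260 with YTHDF3. Within a library the ratio leaves out the swings that Nefl and Nefm share, and it did not overlap between the YTHDF1 RIP and any other group. How often ratios of other gene pairs separate in this way was not counted, and the ratio was not tested. The ratio of Nefh to Nefl per length was 0.0936 to 0.111 with YTHDF1. It overlapped with the YTHDF3 RIP at 0.0764 to 0.124, and not with Input or the YTHDF2 RIP. A long annotated form of Nefm shares 1108 exonic bases with Nefl on the opposite strand, and the counting used strand.

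Gap43 was lower in every RIP by value and passed in none in the fit of all libraries. It was at 279.6, 160.0 and 281 CPM in Input, 112, 254 and 109 with YTHDF1, 144, 152 and 82.9 with YTHDF2, and 132, 100.4 and 138 with YTHDF3. The log2 fold changes were -0.60 (SE 0.36), -0.93 (SE 0.37) and -0.96 (SE 0.36) with adjusted p of 0.185, 0.0691 and 0.0559 in edgeR's test. The YTHDF2 and YTHDF3 libraries all lay below Input. DESeq2 called Gap43 depleted in both (-0.94 and -0.92), and so did edgeR without Input replicate 2 (-1.16 and -1.19) or without YTHDF1 RIP replicate 2 (-0.95 and -0.91). It was also called in both with TMM factors over protein-coding genes (-1.04 and -1.01), with no filter (-1.03 and -0.83) and with only the groups compared (-0.92 and -0.90). For YTHDF3 it was further called without YTHDF2 RIP replicate 3 (-0.96) and in the blocked fit of only these groups (-0.86). For YTHDF1 it was called with library size alone (-1.04) and without YTHDF1 RIP replicate 2 (-1.19).

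Dcx was depleted in the YTHDF2 RIP. It was at 268, 216 and 474 CPM in Input and at 73.7, 134 and 38.1 in the YTHDF2 RIP, 3.89-fold lower (log2 fold change -1.96, SE 0.67, adjusted p = 0.0415, edgeR). The groups did not overlap, yet the call was lost without Input replicate 1 (-2.07), Input replicate 2 (-2.18), Input replicate 3 (-1.55), YTHDF2 RIP replicate 1 (-1.89), YTHDF2 RIP replicate 3 (-1.61) or YTHDF3 RIP replicate 2 (-1.94), and with library size alone (-1.86, adjusted p = 0.0503). In the YTHDF1 RIP Dcx was at 97.1, 563 and 136 CPM, so that replicate 2 was above and the other libraries below every Input library (log2 fold change -0.27, SE 0.65, adjusted p = 0.754, edgeR). In the YTHDF3 RIP it was at 224, 228 and 488 CPM, close to the Input library of the same number (-0.03, adjusted p = 0.980).

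YTHDF1 RIP replicate 2 decided most of the YTHDF1 result. With it, 2 members were depleted. Without it, 8 members passed in edgeR's test, where 26.3% of 17306 genes were enriched and 29.7% depleted. They were Ina (log2 fold change -0.56), Gap43 (-1.19), Dcx (-1.52), Stmn1 (-2.13), Stmn2 (-2.12), Stmn3 (-2.29) and Stmn4 (-0.77) as depleted and Nefm (1.52) as enriched. In this library Dcx and Stmn1 were more than 3 times as high in CPM as in the other YTHDF1 RIP libraries. It also had the highest summed astrocyte markers of its group, at 1196 CPM against 329 and 752, and the highest neural progenitor markers, at 449 against 225 and 307. Within the astrocyte list Gja1 was lowest there, at 59.5 CPM against 79.1 and 71.0, while Gfap, Slc1a3, Aqp4 and Aldh1l1 were highest. The part of other cell types in the result was not tested.

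Because the YTHDF3 RIP and Input libraries of a number deviated together, the paired values are given as well. The log2 ratio of YTHDF3 RIP to the Input of the same number was -2.56, -2.69 and -2.92 for Stmn3, -1.70, -1.56 and -1.77 for Stmn1, -1.24, -1.16 and -1.68 for Stmn2, and -0.93, -0.86 and -0.97 for Stmn4. The ratios of all 4 stathmins were negative in every pair. When only Input and YTHDF3 RIP libraries were fitted, blocked by replicate number, 8 members passed in edgeR's test, where 32.3% of 17462 genes were depleted and 36.2% enriched. Depleted were Stmn3 (-2.65), Stmn1 (-1.61), Stmn2 (-1.29), Gap43 (-0.86), Stmn4 (-0.85), Ina (-0.44) and Nefl (-0.35, adjusted p = 0.00179), while Nefh was enriched (0.65, adjusted p = 1.29e-05). The ratios of Nefh were 0.62, 0.75 and 0.34 and those of Nefl -0.23, -0.47 and -0.56. Nefm (0.05) and Dcx (0.02) did not pass in this fit.

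Between the RIPs, 1 member passed. A difference was called at a fold change of at least 2 with an adjusted p of at most 0.05, which held for 11.4% of genes as higher and 6.07% as lower with YTHDF1 than with YTHDF2. Ina was 2.39-fold higher in the YTHDF1 than in the YTHDF2 RIP (log2 1.26, SE 0.21, adjusted p = 0.00130, edgeR), with no overlap between the libraries given above, as for 20.5% of genes. The call fell short of the fold threshold without YTHDF1 RIP replicate 2 (0.96) and with library size alone (0.75). Dcx (1.69, adjusted p = 0.0848) and Nefm (1.42, adjusted p = 0.0802) had larger values with wider errors and did not pass in edgeR's test. Both passed with DESeq2 (1.63 and 1.39) and with no filter (1.75 and 1.49), as Nefh did with no filter (1.21). Dcx passed without YTHDF1 RIP replicate 1 (2.09), Nefm without YTHDF2 RIP replicate 3 (1.91), and Stmn1 as lower without YTHDF1 RIP replicate 2 (-1.42). When only these groups were fitted, blocked by replicate number, Nefm (1.42, adjusted p = 0.00718, edgeR), Nefh (1.16, adjusted p = 0.00584) and Dcx (1.39, adjusted p = 0.0247) passed beside Ina, where 10.7% of 16860 genes were higher and 7.84% lower.

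No member passed between the YTHDF1 and YTHDF3 RIPs, where 10.8% of genes were higher and 3.62% lower, nor between the YTHDF2 and YTHDF3 RIPs, where 3.93% were higher and 1.16% lower. With no filter, Nefm was higher with YTHDF1 than with YTHDF3 (1.18). Ina was 1.99-fold lower with YTHDF2 than with YTHDF3 (log2 -0.99, SE 0.21, adjusted p = 0.0203, edgeR), which met the p and missed the fold. It was called in 8 of 12 alternatives, namely with DESeq2, all other scalings, no filter, a minimum mean of 50 and only the groups compared, with values down to -1.24 (library size alone). It was also called without Input replicate 3 (-1.01), YTHDF1 RIP replicate 2 (-1.06) or YTHDF1 RIP replicate 3 (-1.06). Dcx was called lower with DESeq2 (-1.99), with no filter (-2.18), with only the groups compared (-2.06) and without YTHDF1 RIP replicate 2 (-2.01). Stmn3 was 1.92-fold higher with YTHDF2 than with YTHDF3 (log2 0.94, SE 0.25, adjusted p = 0.0440, edgeR), again under the fold threshold, and was called without YTHDF3 RIP replicate 1 (1.2). For Stmn1, Stmn2 and Stmn4 the pairwise differences ranged from -0.40 to 1.00 on the log2 scale with adjusted p of at least 0.129. The differences for Stmn1 had an SE of 0.57 and those for Stmn2 an SE of 0.36, so differences well above these sizes could be missed. By the rule, no difference under 2-fold could be called.

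A test of the 3 RIPs together found a difference in the level of recovered RNA for 32.1% of genes. Ina (adjusted p = 0.00295, edgeR) and Stmn3 (adjusted p = 0.0323) passed, while Nefm (0.0831) and Dcx (0.0912) did not. Ina was lowest in the YTHDF2 RIP and Stmn3 in the YTHDF3 RIP. In 5 of the 12 fits that left out 1 library only 1 member passed, namely without any of the YTHDF2 RIP libraries or without YTHDF3 RIP replicate 2 or 3.

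Within groups, the members split into sets that moved in opposite directions. These sets were chosen after the values were seen. In each of the 4 groups, the library lowest in Nefl was also the lowest in Nefm and Nefh and the highest in Gap43, Dcx and Stmn1. It was replicate 3 in Input and in the YTHDF3 RIP and replicate 2 in the YTHDF1 and YTHDF2 RIPs. The groups share lysates per the methods and are not independent. Outside the YTHDF1 RIP, Gap43 was only slightly higher there than in replicate 1. It was at 281 against 279.6 CPM in Input, 152 against 144 with YTHDF2 and 138 against 132 with YTHDF3. The ratio of Nefl to Dcx in CPM was 1.84, 1.88 and 0.383 in Input, 4.11, 0.366 and 4.31 with YTHDF1, 4.28, 0.723 and 9.16 with YTHDF2, and 1.88, 1.28 and 0.252 with YTHDF3. The library lowest in Nefl thus had the lowest ratio in each group.

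**Figure D3:**
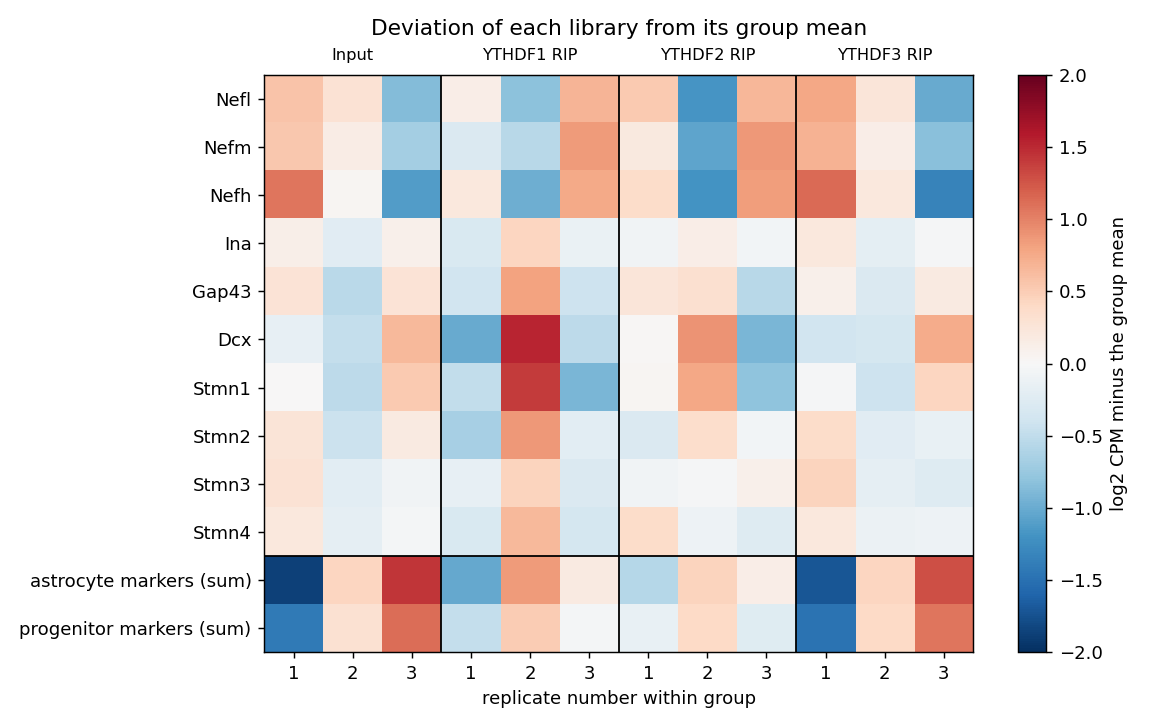
Deviation of log2 CPM from the group mean (colour, red above and blue below) for each mRNA and for the summed astrocyte and neural progenitor markers (rows) in each of the 12 libraries (columns, by group and replicate number). Nefl, Nefm and Nefh are blue in the library of each group where Gap43, Dcx, Stmn1 and both marker sums are red. Gap43 is also above its group mean in replicate 1 of Input and of the YTHDF2 and YTHDF3 RIPs.

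As a description over the 12 libraries, which share their groups and lysates, deviations of log2 CPM from the group mean were correlated. Among Nefl, Nefm and Nefh Pearson's r was 0.945 to 0.977, and among Dcx, Stmn1 and Gap43 it was 0.875 to 0.946. Between those sets r was -0.829 to -0.500. Ina, although a neurofilament subunit, deviated with Stmn2 (r = 0.979) and not with Nefl (r = -0.383). Stmn3 deviated with Ina (0.816) and Stmn2 (0.794) and was near 0.09 with Nefl.

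The same libraries differed in markers of other cells. In 4 of 4 groups the library lowest in Nefl had the highest summed astrocyte markers and the highest summed neural progenitor markers, and in 3 of 4 the lowest summed neuron markers. The groups share lysates per the methods, so these are not 4 independent observations. Single markers did not all follow the sums. Tubb3, a neuron marker, was highest in that library in each group. It was there at 476 CPM in Input, 554 with YTHDF1, 187 with YTHDF2 and 206 with YTHDF3. Rbfox3 was lowest there in each group, and Map2, Syn1 and Snap25 followed the neuron sum. The astrocyte marker Gja1 was highest there in no group, and Slc1a3 was highest elsewhere with YTHDF2. Gfap, Aqp4 and Aldh1l1 were highest there in each group. Deviations of Nefl had r = -0.696 with those of the astrocyte markers and -0.742 with the progenitor markers, Nefh -0.794 and -0.848, and Nefm -0.577 and -0.680. In the opposite set r was smaller in size and uneven, at 0.535 and 0.545 for Dcx, 0.329 and 0.357 for Stmn1 and 0.103 and 0.134 for Gap43. In Input the astrocyte sum was 255.6, 1248 and 2514 CPM in replicates 1, 2 and 3, alongside Nefl at 494, 406 and 181 CPM. Stmn2 and Ina had r = 0.075 and 0.037 with the astrocyte markers. With the oligodendrocyte lineage markers r was -0.723 for Stmn2 and -0.716 for Ina and for Stmn3, beside -0.207 for Nefl. That marker sum was 1262 CPM in YTHDF1 RIP replicate 1 and 216 and 214 CPM in replicates 2 and 3. The part of other cell types in the neurofilament levels was not tested.

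Gene length went along with the RIP values. Over 17284 genes the Spearman correlation of exonic length with the log2 fold change was 0.461, 0.373 and 0.516 for YTHDF1, YTHDF2 and YTHDF3, and over the 10 members it was 0.552, 0.006 and 0.685. Gap43, Stmn1, Stmn3 and Stmn4 have 1136 to 1922 exonic bases and Dcx 12647. With the length trend of each library removed, Stmn3 had log2 fold changes of -1.19, -1.19 and -1.87 and stayed depleted in all 3 RIPs in edgeR's test. Stmn2 had -1.81, -2.06 and -1.84, and Dcx in the YTHDF2 RIP -2.47. The trend was taken over the length of all annotated exons, 5602 bases for Stmn2, whose reference transcript has 2073 bases. Removal by transcript length was not run. Whether length itself enters the recovery of RNA was not tested.

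**Figure D4:**
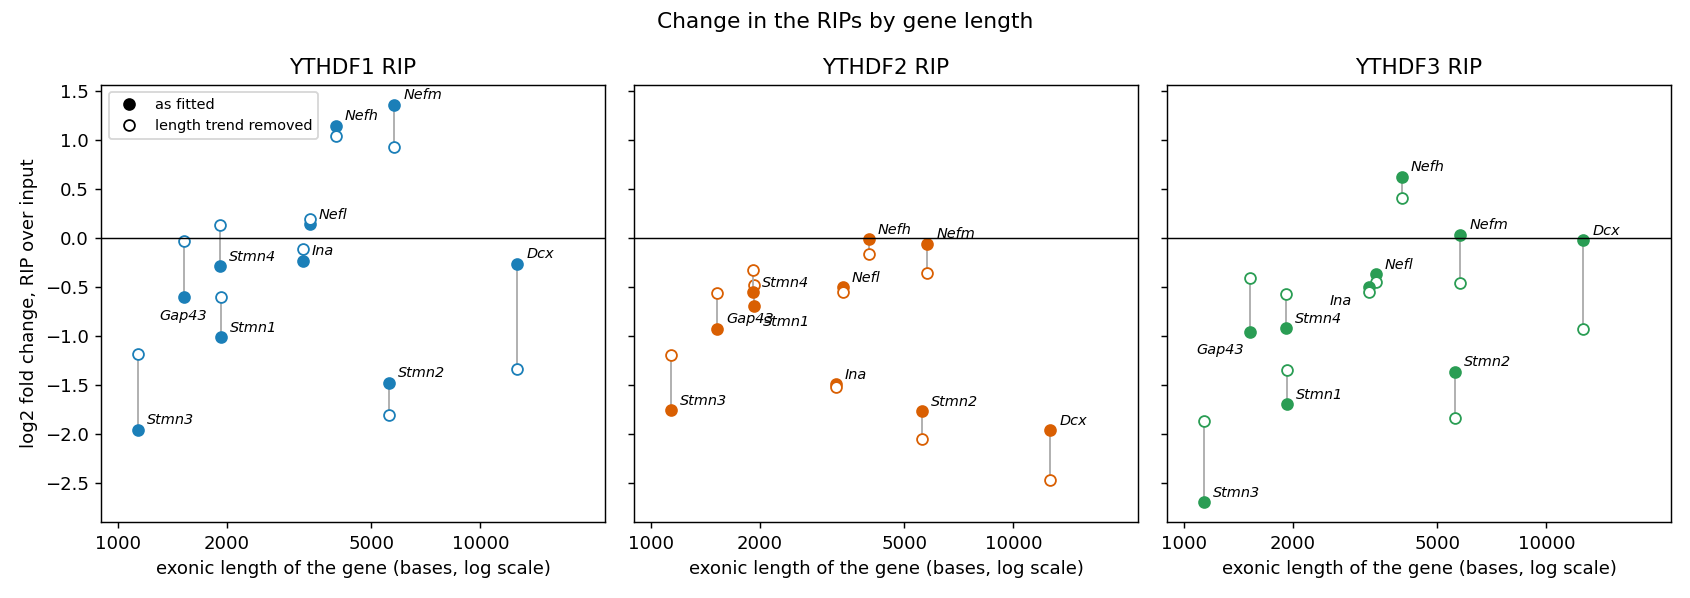
Log2 fold change of RIP over Input (vertical axis) against exonic length in bases (horizontal axis, log scale) for the 10 mRNAs in each RIP. Filled points are the values as fitted and open points those after removal of the length trend. Stmn3, the shortest, rises from -1.96, -1.76 and -2.70 to -1.19, -1.19 and -1.87, while Stmn2 and Dcx fall.

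Related genes were called in both directions. Of 52 further genes in 5 lists, all of which were tested, 20 were enriched and 6 depleted with YTHDF1 (median log2 fold change 0.43), 8 and 12 with YTHDF2 (-0.44), and 8 and 5 with YTHDF3 (-0.01). Of all genes 27.1% were enriched and 25.5% depleted with YTHDF1, 15.6% and 18.9% with YTHDF2, and 16.3% and 22.9% with YTHDF3, so the enriched counts with YTHDF2 and YTHDF3 are near the share of all genes. Among 8 other intermediate filament genes, which include vimentin, nestin and the lamins, 2 were enriched in the YTHDF1 RIP and 1 in each of the others, with 0 depleted. These enriched counts are near the share of all genes too. Among 14 genes of the doublecortin and CRMP families and of axon growth, 6 were enriched and 1 depleted with YTHDF1, 2 and 2 with YTHDF2, and 3 and 0 with YTHDF3. Among 8 proteins known to bind Gap43, Nefl or Stmn2 mRNA, 4 were enriched and 0 depleted with YTHDF1, 1 and 2 with YTHDF2, and 0 and 0 with YTHDF3.

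Kinases and turnover factors went in both directions, as all genes did. Of 14 such genes, 6 were enriched and 3 depleted with YTHDF1, 3 and 6 with YTHDF2, and 3 and 4 with YTHDF3. The 3 depleted with YTHDF1 and the 3 enriched with YTHDF2 or YTHDF3 are near the shares of all genes given above. Of 8 membrane substrates and kinases related to Gap43, 2 and 2, 1 and 2, and 1 and 1 were enriched and depleted in the same order. Nrgn, neurogranin, which like Gap43 is a protein kinase C substrate that binds calmodulin, was depleted in all 3 RIPs (log2 fold changes -1.51, -1.45 and -2.14, adjusted p = 0.000871, 0.00237 and 0.000166, edgeR). Prkce, protein kinase C epsilon, was enriched in the YTHDF3 RIP at 1279, 1082 and 933 CPM against 469, 393 and 293 in Input (log2 1.51, SE 0.27, adjusted p = 0.00101, edgeR).

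With YTHDF1 the highest of the listed genes were Ncam1 (log2 3.25, SE 0.47), a neural adhesion molecule, Elavl2 (2.90), a neuronal RNA-binding protein, and Dpysl2 (2.82), the tubulin-binding CRMP2. The lowest were Gsk3a (-1.61), a kinase, Nrgn and Marcksl1 (-1.13), a membrane-bound kinase substrate. Ncam1 rose from 755 to 865 CPM in Input to 2955, 14210 and 5610 CPM, again with YTHDF1 RIP replicate 2 the highest. With YTHDF2 Lmnb2 (1.56), a lamin, and Gprin1 (1.35), a neurite outgrowth protein, were highest. The lowest were Mapk3 (-1.69), a kinase, Nrgn and Gsk3a (-1.32). With YTHDF3 Gprin1 (1.36) and Dst (1.21), a linker of filaments to microtubules, followed Prkce, and Mapk3 (-1.49) and Cdk5 (-1.08), a neurofilament kinase, followed Nrgn. All of these passed with adjusted p of at most 0.0187 in edgeR's test.

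Genes with the most similar profiles were sought among 11048 genes with a mean of at least 100 counts, by Pearson's r of log2 CPM over the 12 libraries. For Nefl they were Got1 (0.978), Abcg1 (0.972) and Map7d2 (0.965), ahead of Nefh (0.884) and Nefm (0.844). For Dcx they were Amz2 (0.952), Cd200 (0.943) and Dpysl3 (0.939), and for Stmn2 they were Dnajc2 (0.971), Rab3d (0.968) and Rala (0.964). For Gap43 they were Tpm3 (0.936), Tpm3-rs7 (0.928) and Apex1 (0.923). Tpm3 and Tpm3-rs7 are near-identical, and reads with several alignments were counted at each, so their values are uncertain and not separate. The points share 3 libraries per group, and r mixes differences between groups with those within them.

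Some members overlap other annotated genes. Stmn1 overlaps an annotated miRNA gene on the same strand over 66 bases, Gm23634, which had 54 to 534 counts per library. Ina shares 456 exonic bases with Nt5c2 on the opposite strand. Counts of the members ranged from 56 for Nefh in a YTHDF2 RIP library to 16065 for Nefl in a YTHDF1 RIP library, so that counting error is greatest for Nefh.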

How the data were processed

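Per the labels and the file headers, the authors prepared strand-specific libraries of total RNA with molecular identifiers, removed duplicates with UMI-tools 1.1.1, trimmed with cutadapt 3.4, aligned to the mouse genome GRCm38 (mm10) with STAR 2.7.7a and counted with featureCounts 2.0.1 (Ensembl release 97, strand setting 2). The deposited values are raw counts per gene. Reads over more than 1 gene counted for each gene, and multi-mapping reads at each alignment, which inflates gene families and repeats. The authors' per-protein DESeq2 tables hold mean counts, fold changes and p-values of their own comparisons, and only the gene symbols and gene types in them were used here. All sample columns were used.

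Genes with a mean library-size-normalized count of at least 10 were kept (17284 of 55573). TMM factors were computed over these genes, and 1 quasi-likelihood model of 4 groups was fitted to 12 libraries with edgeR 4.0.16 in R 4.3.3 (common biological coefficient of variation 0.324). Standard errors were derived from the F statistic and the log2 fold change. Log2 CPM used a prior count of 2, and the length trend was a loess curve of span 0.3. An exact permutation test of 3 against 3 libraries cannot give p below 0.1 and was not used. The fit was tested on simulated counts. Alternatives were DESeq2 1.42.0, other scalings and filters, fits of only the groups compared, the replicate block, removal of the length trend and leaving out each library.

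The members, the related gene lists and the tests were chosen with earlier results of these data known. Named were the 10 members, and of the related genes the 3 highest and the 3 lowest that passed in each RIP, apart from items that are not reported here. Same-numbered deviations from group means had r = 0.826, 0.521 and 0.801 between YTHDF3 RIP and Input. The methods describe lysates shared by the RIPs and Input of a replicate, for all 3 proteins. The deviations had r = 0.093, -0.265 and -0.318 for YTHDF1 and 0.176, -0.321 and -0.310 for YTHDF2 against Input, and 0.054, 0.541 and 0.341 between YTHDF1 and YTHDF2. Replicate 2 of the YTHDF1 and YTHDF2 RIPs had r up to 0.466 and 0.556 with an Input library of another number, so that a block for these RIPs against Input may not join libraries of 1 lysate. No numbers were exchanged. Blocked values stand beside the results they change. Figures were drawn with matplotlib 3.10.9.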

Additional observations from a re-analysis of the deposited data

Results flagged for a closer look

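The change against Input differed among the RIPs by a direct test for Ina (adjusted p = 0.00295, edgeR's quasi-likelihood test), which stood at 56 CPM on average in the YTHDF2 RIP and at 133 and 111 CPM in the YTHDF1 and YTHDF3 RIPs. It also differed for Stmn3 (adjusted p = 0.0323), which averaged 63.8 CPM in the YTHDF3 RIP and 107 and 123 CPM in the YTHDF1 and YTHDF2 RIPs. All groups had 3 libraries, too few for a check of single outlying values.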

How the results depend on the processing

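Stmn2 and Stmn3 in the YTHDF1 and YTHDF2 RIPs, Stmn3 in the YTHDF3 RIP and Ina in the YTHDF2 RIP stayed depleted under all 12 alternatives and in all 12 fits that left out 1 library. All other calls of a member against Input or between a pair of RIPs changed under at least 1 of them. No value that changed direction passed its test before or after the change. The causes were not tested. Depth limits Nefh most, with a lowest count of 56.

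The number of members called against Input became 6 for YTHDF1 and 2 for YTHDF3 with library size alone, 5 for YTHDF1 with no filter, and 2 for YTHDF3 with the length trend removed, with or without the replicate block. Between YTHDF1 and YTHDF2 it was 3 with DESeq2, 0 with library size alone and 4 with no filter. Between YTHDF1 and YTHDF3 it was 1 with no filter. Between YTHDF2 and YTHDF3 it was 2 with DESeq2, no filter or only the groups compared, and 1 with DESeq2 size factors, library size alone, either other TMM calculation or a minimum mean of 50. Among the RIPs together it was 4 with DESeq2 or no filter and 1 with TMM before the filter. When 1 library was left out, the counts against Input ran from 2 to 8 for YTHDF1, 3 to 6 for YTHDF2 and 1 to 6 for YTHDF3. They ran from 1 to 2 between YTHDF1 and YTHDF2, 0 to 2 between YTHDF2 and YTHDF3 and 1 to 3 among the RIPs together, and stayed at 0 between YTHDF1 and YTHDF3.

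With the replicate number as a block in a fit of only the groups compared, the number of members called was 8 for YTHDF3 against Input and 4 between YTHDF1 and YTHDF2. In that fit Nefl with YTHDF1 (-0.00203), Dcx with YTHDF3 (0.0215) and Gap43 between YTHDF2 and YTHDF3 (-0.112) changed direction. With the block in all libraries, Nefh with YTHDF2 (0.00258) and Gap43 between YTHDF2 and YTHDF3 (-0.00521) did. With the block and the length trend removed, Stmn4 with YTHDF1 (0.128), Nefm with YTHDF3 (-0.475), Stmn3 between YTHDF1 and YTHDF2 (0.00600), and Nefm (0.0244) and Gap43 (-0.178) between YTHDF2 and YTHDF3 did. The block changed no other call beyond those given beside the results, apart from Stmn1 and Stmn4 with YTHDF3, which did not pass with the length trend removed, with or without the block.

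Direction also changed in log2 fold changes as follows. With library size alone it changed for Nefl with YTHDF1 (-0.252), Nefh with YTHDF2 (0.0330) and Dcx with YTHDF3 (0.325) against Input. Between YTHDF1 and YTHDF2 it then changed for Gap43 (-0.206), Stmn2 (-0.247) and Stmn4 (-0.248), between YTHDF1 and YTHDF3 for Nefl (-0.177), Nefh (-0.150), Ina (-0.481), Gap43 (-0.411), Stmn1 (-0.117) and Stmn4 (-0.120), and between YTHDF2 and YTHDF3 for Gap43 (-0.205). TMM over protein-coding genes changed Nefl with YTHDF1 (-0.125), Nefm with YTHDF3 (-0.0382) and Gap43 between YTHDF2 and YTHDF3 (-0.0325). Removal of the length trend changed Stmn4 with YTHDF1 (0.134), Nefm with YTHDF3 (-0.460), Stmn3 between YTHDF1 and YTHDF2 (0.00770), Stmn2 between YTHDF1 and YTHDF3 (0.0308), and Nefm (0.0960) and Gap43 (-0.151) between YTHDF2 and YTHDF3. Dcx with YTHDF3 and Gap43 between YTHDF2 and YTHDF3 changed to 0.0278 and -0.0175 with DESeq2, 0.0281 and -0.0176 with DESeq2 size factors, 0.118 and -0.198 with TMM before the filter or no filter, and 0.0577 and -0.0794 with only the groups compared.

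Leaving out 1 library turned the direction of some members, over these ranges. With YTHDF1 against Input they were -0.336 to 0.433 for Nefl and -1.52 to 0.135 for Dcx, with YTHDF2 -0.556 to 0.312 for Nefm and -0.456 to 0.670 for Nefh, and with YTHDF3 -0.364 to 0.354 for Nefm, -0.0575 to 1.31 for Nefh and -0.490 to 0.400 for Dcx. Between YTHDF1 and YTHDF2 they were -0.244 to 0.524 for Gap43, -1.42 to 0.140 for Stmn1, -0.329 to 0.569 for Stmn2 and -0.193 to 0.467 for Stmn4. Between YTHDF1 and YTHDF3 they were -0.000770 to 0.933 for Nefl, -0.0276 to 1.2 for Nefh, -0.102 to 0.412 for Ina, -0.282 to 0.555 for Gap43, -1.56 to 0.221 for Dcx, -0.492 to 0.971 for Stmn1 and -0.797 to 0.166 for Stmn2. Between YTHDF2 and YTHDF3 they were -0.497 to 0.289 for Nefl, -0.588 to 0.305 for Nefm, -1.08 to 0.0415 for Nefh and -0.120 to 0.262 for Gap43.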
